A study of Mus musculus with 4 samples.

Results

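The T cell receptor signalling components are 37 mouse genes that carry the signal from the antigen receptor of a T cell to the NFAT transcription factors. They were chosen by name, with earlier results of these data known. All array probe sets annotated with exactly 1 of these symbols were taken. Of the 37 genes, 36 had at least 1 probe set, 81 in all. Lck was not analysed here. For each gene the brightest probe set was used, meaning the one with the highest mean log2 intensity over the 4 arrays. Of the 36 genes, 35 had a mean log2 intensity of at least 4 and were tested among 8629 genes in all. Txk, a Tec family kinase gene, lay below this filter, with log2 intensities of 2.75 and 2.99 on the Foxp3-deleted arrays, against 2.80 and 2.77 on the Foxp3 wild-type arrays.

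The study asked what regulatory T (Treg) cells express after they lose Foxp3, the forkhead factor on which the identity of this suppressive lineage rests. In the deleted group, 2 arrays held peripheral mouse Treg cells with a loxP-flanked Foxp3 gene, and in the wild-type group 2 arrays held Treg cells with an unmodified Foxp3 gene. Both groups were exposed to Cre recombinase through HR-MMPCreGFP, transferred into hosts, and recovered after 6 weeks as CD4+ YFP+ Ly5.2+ cells. YFP marks exposure to Cre and not loss of Foxp3, and the labels do not give the age of the animals, the host strain or whether replicates came from separate animals. CD4 and Ly5.2, an allelic form of CD45, were sort markers in both groups, so the products of Cd4 and Ptprc were used to choose the cells.

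When a T cell receptor binds peptide and MHC, Src family kinases phosphorylate the CD3 and zeta chains, which recruit the kinase ZAP-70. ZAP-70 phosphorylates the adaptors LAT and SLP-76, on which phospholipase C-gamma1, VAV1 and other effectors assemble. The products of phospholipase C-gamma1 release calcium, which brings NFAT into the nucleus through calcineurin, and activate protein kinase C-theta and RASGRP1. Some phosphatases, such as PTPN22, and ubiquitin ligases, diacylglycerol kinases and the inhibitory kinase CSK restrain these steps. Treg cells need the receptor for their suppressive function and are known to signal through it in a muted way.

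Foxp3, the targeted gene, had intensities of 437.8 and 429.8 in the deleted group, against 2694 and 2404 in the wild-type group. Its log2 difference, always given as deleted minus wild-type, was -2.55 (SE 0.28, limma adjusted p = 0.0749). Where its probes lie relative to the deleted part of the gene was not examined. Over all 45101 probe sets the arrays correlated between 0.964 and 0.982 on the log2 scale. Wild-type replicate 1 stood somewhat apart, at 0.964, 0.966 and 0.975 with the other arrays, whereas wild-type replicate 2 correlated with deleted replicate 1 at 0.982, as did both deleted arrays with each other. The T cell label was borne out by the CD3 and zeta chain genes below. Of 6 antigen receptor chain genes looked for, however, only Tcra had a probe set, and it did not exceed a log2 intensity of 2.88. Cd8a and Cd8b1 did not exceed 3.49 on any array.

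Of the 35 tested genes, 24 had a higher mean in the deleted than in the wild-type group. Their median difference came to 0.33 (log2), against -0.02 over all genes tested, of which 48.1% had a higher mean. A difference of at least 1, which is 2-fold, with no overlap between the groups was found for 8 genes, all higher in deleted cells (22.9%, against 5.57% of all genes tested): Themis, Cd4, Pag1, Fyn, Prkcq, Grap2, Lat and Ptpn22. No pathway gene was lower by as much without overlap, against 4.93% of all genes tested. The pathway genes were chosen with earlier results of these data known, so no test of the list was made. Without regard to size, 14 genes lay higher without overlap (17.7% of all genes) and 4 lower (22% of all genes). Grap2 passed the filter only through the deleted arrays, so its place among the 8 follows in part from the filter. Without it there were 7 such genes of 34 and the median was 0.3. With all 35 genes the median was 0.21 without deleted replicate 2 (0.01 over all genes tested). Without wild-type replicate 2, 6 of the 35 were higher by at least 1 without overlap, or 17.1%, against 11.5% of all genes tested.

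After Benjamini-Hochberg adjustment over all genes tested, limma called 0 of the 35 genes at 0.05, and 0% of all genes. At an unadjusted p under 0.05 there were 8 pathway genes, against 9.95% of all genes tested. All 8 are the genes named above, and their adjusted p ranged between 0.148 and 0.492. The pathway genes were also brighter than the average gene (median of the mean log2 intensity 9.65 against 7.27) and varied less within groups (median SD 0.29 against 0.37). The samples were bulk preparations, in which fewer cells of a type and less RNA per cell cannot be told apart.

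**Figure D1:**
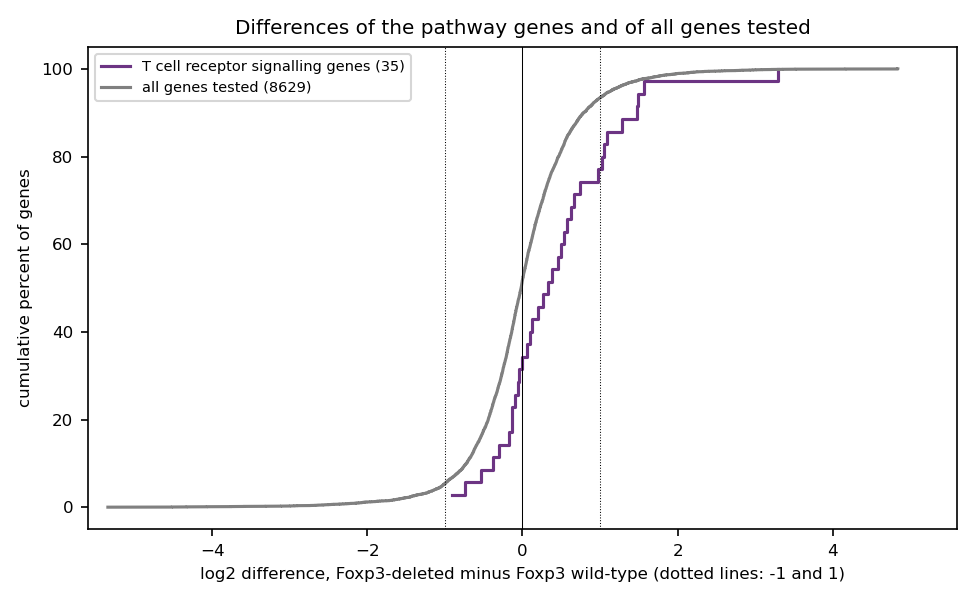
Cumulative percent of genes (vertical axis) by log2 difference, deleted minus wild-type (horizontal axis), for the 35 pathway genes and all 8629 genes tested. The pathway curve lies to the right of the other at the median, 0.33 against -0.02, and its lowest gene is Cd2 at -0.91.

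Promoters are shown for the members higher by at least 1 without overlap that held a marked motif, for Themis as the gene with the largest difference, and for Nfatc2 and Nfatc3, since Foxp3 is a forkhead factor and forkhead letters were searched. The windows are RefSeq's, build GRCm38.p6, from 250 bases before to 50 after an annotated start, read 5′ to 3′ on the strand of the gene. Capitals mark GTAAACA (forkhead), TGTGGT (RUNX) or CTTTGA (TCF), on either strand, and no 2 marked matches overlap. Of the 36 genes 29 had a window, 43 windows in all.
Themis, chr10:28668110-28668409, plus strand: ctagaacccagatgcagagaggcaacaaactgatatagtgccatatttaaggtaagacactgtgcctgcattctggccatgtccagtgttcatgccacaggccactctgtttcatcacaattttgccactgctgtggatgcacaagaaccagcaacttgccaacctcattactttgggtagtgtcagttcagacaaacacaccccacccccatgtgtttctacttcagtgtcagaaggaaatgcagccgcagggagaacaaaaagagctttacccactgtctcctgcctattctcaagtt
Fyn, chr10:39369549-39369848, plus strand: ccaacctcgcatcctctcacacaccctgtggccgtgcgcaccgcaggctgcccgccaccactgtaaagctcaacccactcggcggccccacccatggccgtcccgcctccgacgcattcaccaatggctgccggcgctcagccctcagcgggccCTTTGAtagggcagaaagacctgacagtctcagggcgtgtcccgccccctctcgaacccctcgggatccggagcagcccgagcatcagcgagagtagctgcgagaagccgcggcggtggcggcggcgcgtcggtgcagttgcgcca
Lat, chr7:126369519-126369818, minus strand: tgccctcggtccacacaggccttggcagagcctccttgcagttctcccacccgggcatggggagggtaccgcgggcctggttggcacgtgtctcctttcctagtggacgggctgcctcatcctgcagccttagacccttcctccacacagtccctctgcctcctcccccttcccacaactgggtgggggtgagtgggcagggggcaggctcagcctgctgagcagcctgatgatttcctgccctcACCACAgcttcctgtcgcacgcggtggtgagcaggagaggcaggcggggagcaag
Grap2, chr15:80623233-80623532, plus strand: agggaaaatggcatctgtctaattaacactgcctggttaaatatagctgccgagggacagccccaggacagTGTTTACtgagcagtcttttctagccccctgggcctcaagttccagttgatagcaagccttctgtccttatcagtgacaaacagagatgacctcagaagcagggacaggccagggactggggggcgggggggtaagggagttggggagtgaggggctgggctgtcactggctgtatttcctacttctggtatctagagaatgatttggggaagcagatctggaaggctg
Ptpn22, chr3:103860027-103860326, plus strand: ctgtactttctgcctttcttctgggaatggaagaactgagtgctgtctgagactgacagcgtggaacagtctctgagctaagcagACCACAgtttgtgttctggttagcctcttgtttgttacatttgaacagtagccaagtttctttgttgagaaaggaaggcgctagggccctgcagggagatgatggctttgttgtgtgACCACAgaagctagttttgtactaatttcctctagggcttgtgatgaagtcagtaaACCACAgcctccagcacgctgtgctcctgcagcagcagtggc
Nfatc2, chr2:168601608-168601907, minus strand: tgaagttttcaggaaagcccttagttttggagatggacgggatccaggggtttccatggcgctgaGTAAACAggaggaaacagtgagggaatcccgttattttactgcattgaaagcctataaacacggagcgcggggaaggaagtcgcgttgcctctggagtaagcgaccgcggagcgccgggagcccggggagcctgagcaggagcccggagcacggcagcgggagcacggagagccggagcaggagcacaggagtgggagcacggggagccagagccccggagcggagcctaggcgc
Nfatc3, chr8:106058568-106058867, plus strand: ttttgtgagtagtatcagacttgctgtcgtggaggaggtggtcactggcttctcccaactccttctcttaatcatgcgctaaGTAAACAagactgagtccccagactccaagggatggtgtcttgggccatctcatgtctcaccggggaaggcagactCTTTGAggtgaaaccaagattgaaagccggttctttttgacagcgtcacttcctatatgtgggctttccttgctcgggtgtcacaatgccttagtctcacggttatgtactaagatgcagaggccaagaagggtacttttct

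GTAAACA was present in 3 of the 43 windows, which is 6.98%, against 3.65% of 32851 RefSeq mouse windows of this length. The 3 matches lay 179 bases before an annotated start of Grap2, 185 before 1 start of Nfatc2 and 168 before 1 start of Nfatc3. That Grap2 start lies inside the Grap2 locus, chr15:80572597-80652854, and not at its upstream end. TGTGGT was in 11.6% of the pathway windows and 16.8% of all windows, and CTTTGA in 23.3% and 16%. Ptpn22 held TGTGGT 3 times around 1 of its starts, 165 and 48 bases before and 8 bases after it. Its other window held no marked motif. Lat held TGTGGT once, 5 bases before its start. CTTTGA lay 96 bases before the start of Fyn. Among the members higher without overlap by less than 1, CTTTGA was also found 92 bases before 1 start of Nfatc3. It also lay 73 and 54 bases before the start of Cd3d and 226 bases before 1 start of Dgka. Genes whose groups overlapped on the brightest probe set held these letters too. They were Cd247, Lcp2, Ptprc, Trat1, Txk and Zap70 for CTTTGA, and Trat1, Txk and Zap70 for TGTGGT. The members higher by at least 1 without overlap had 8 windows, of which 1 held CTTTGA and 2 held TGTGGT. The shorter NFAT core GGAAA, not marked, was in 72.1% of pathway windows and 61.3% of all. Neither Themis window nor the Prkcq window held a marked motif, and Cd4 and Pag1 were not searched. These matches describe letters in a short window and were not tested for binding.

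Among the genes of the receptor complex and its co-receptors, Cd4 was higher in deleted cells, Cd2 was lower, and the CD3 and zeta chain genes differed by less than 1 (6 tested, 5 with a higher mean, median difference 0.33, and 0.21 without deleted replicate 1). Cd4, the co-receptor that binds MHC class II and carries LCK to the receptor, had log2 intensities of 9.03 and 9.63 in the deleted group, against 8.38 and 7.15 in the wild-type group. Both deleted arrays lay above both wild-type arrays, although the wild-type arrays were nearly as far apart as the group means. The difference was 1.56 (SE 0.52, limma adjusted p = 0.411), or 2.95-fold, and 0.95 without wild-type replicate 2. Its further probe set lay below the filter, at 3.21 and 4.54 in the deleted against 3.40 and 3.52 in the wild-type group, and overlapped.

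Cd3e, the epsilon chain of the CD3 dimers, read 10.55 and 11.86 in the deleted and 10.90 and 10.53 in the wild-type group. Cd3g, the gamma chain, read 12.39 and 11.55 in the deleted and 11.61 and 11.92 in the wild-type group. For both genes the groups overlapped, and deleted replicate 2 was the highest array for Cd3e while deleted replicate 1 was the highest for Cd3g. Cd3d, the delta chain, was at 11.98 and 11.36 in deleted cells, above 11.21 on both wild-type arrays, with a difference of 0.46 (95% interval -0.28 to 1.20). The zeta chain gene Cd247 overlapped, at 9.57 and 9.85 in the deleted and 9.94 and 9.24 in the wild-type group, and its difference of 0.12 had a 95% interval of -0.80 to 1.05. The intervals for Cd3e (-0.73 to 1.70) and Cd3g (-0.67 to 1.08) likewise include differences of 2-fold or more, so these arrays do not show that the receptor chains were equal. Without deleted replicate 2 the Cd3e difference was -0.17, and without deleted replicate 1 that of Cd3g was -0.22.

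Cd2, an adhesion and costimulatory receptor that binds CD48 in mice, ran the other way. It was at 11.34 and 10.09 in the deleted group, against 11.44 and 11.80 in the wild-type group. Both deleted arrays were lower, deleted replicate 1 by a narrow margin. The difference was -0.91 (SE 0.46, limma adjusted p = 0.642), and it moved to -0.28 when deleted replicate 2 was left out and to -1.53 when replicate 1 was.

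**Figure D2:**
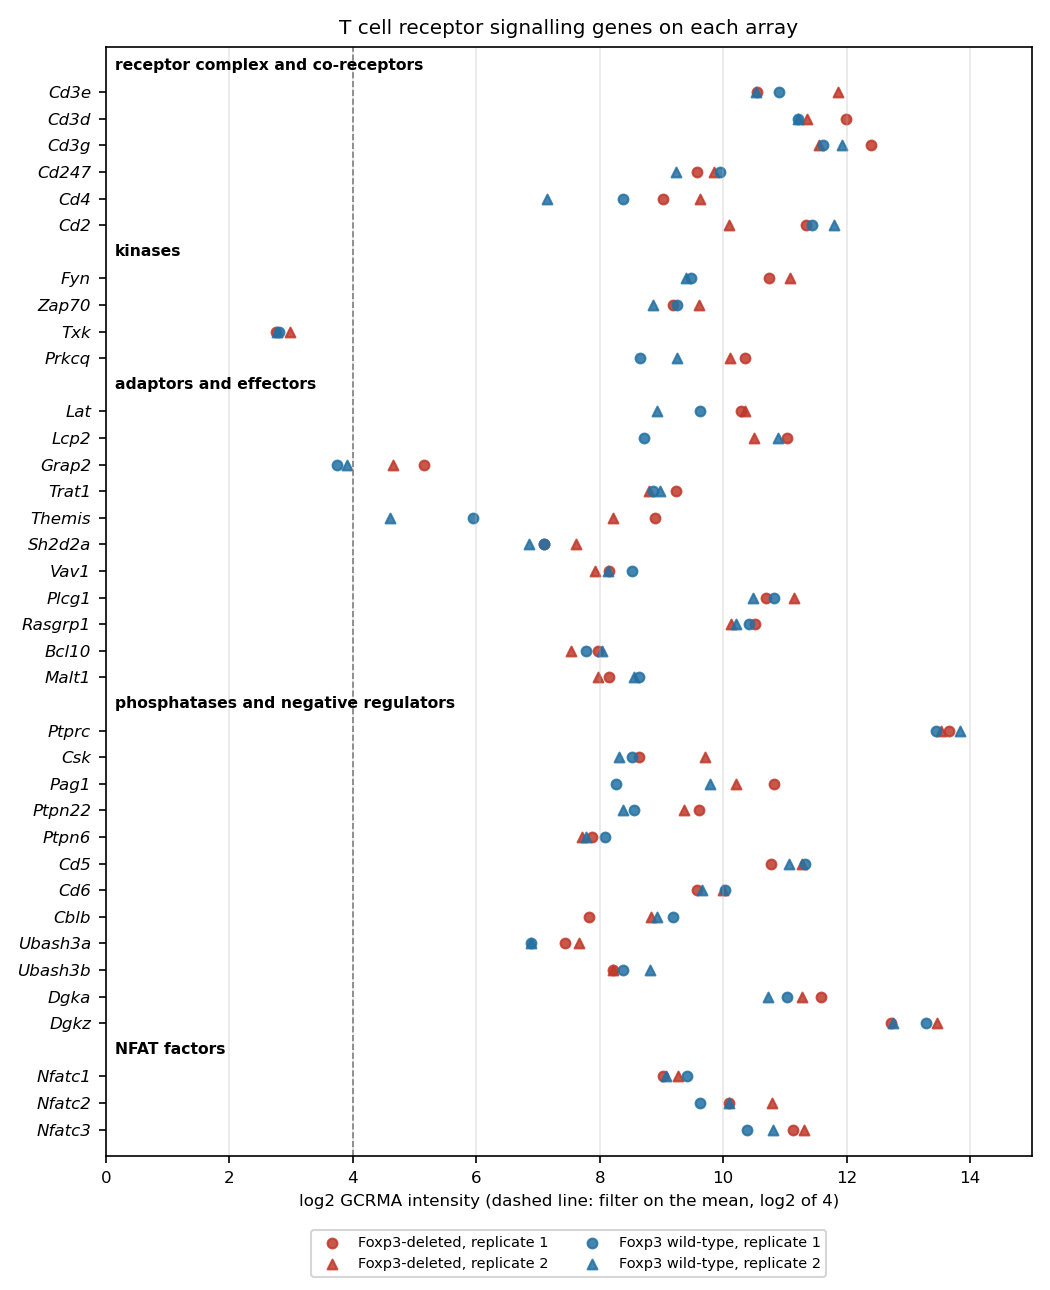
Log2 GCRMA intensity (horizontal axis) of the 36 genes (rows, by step) on the 2 deleted and 2 wild-type arrays, 1 point per array. Themis separates the groups most widely, at 8.89 and 8.22 in the deleted against 5.94 and 4.60 in the wild-type group, while the CD3 genes largely overlap.

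The kinase genes Fyn and Prkcq were higher in deleted cells and Zap70 depended on the probe set (3 tested, 3 with a higher mean, median difference 1.28). Fyn, a Src family kinase that phosphorylates the receptor chains, was at 10.74 and 11.08 in the deleted against 9.48 and 9.39 in the wild-type group. The gap between the groups was wide compared with the spread inside them, whose pooled SD was 0.18. The difference was 1.47 (SE 0.29, limma adjusted p = 0.198), between 1.30 and 1.65 when any 1 array was left out. A further Fyn probe set also lay higher without overlap, by 0.58, at 10.00 and 10.47 against 9.63 and 9.69. Prkcq encodes protein kinase C-theta, which links the receptor to NF-kappaB. It was at 10.35 and 10.11 in the deleted and 8.66 and 9.25 in the wild-type group, a 2.42-fold difference (1.28 on the log2 scale, SE 0.35, limma adjusted p = 0.336). The groups did not overlap, and without wild-type replicate 1 the difference was 0.98. Zap70, the kinase recruited to the phosphorylated chains, overlapped on its brightest probe set, at 9.18 and 9.60 in the deleted and 9.25 and 8.86 in the wild-type group. On a dimmer one it did not, at 8.05 and 8.45 in the deleted against 7.18 and 7.19 in the wild-type group, with a difference of 1.07 against 0.33 on the brightest.

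Among adaptors and effectors, Themis, Lat and Grap2 were higher in deleted cells by at least 1 without overlap (11 tested, 8 with a higher mean, median difference 0.27). Leaving out 1 array moved this median to 0.51 without deleted replicate 1, 0.11 without wild-type replicate 1 and 0.15 without wild-type replicate 2. Themis, which acts in thymocyte selection and binds GRB2 and the phosphatase SHP-1, had intensities of 475 and 299.1 in the deleted group, against 61.33 and 24.28 in the wild-type group. Its difference of 3.29 (SE 0.57, limma adjusted p = 0.148), or 9.77-fold, was the largest of the 35 genes and ranked 102 by p among the 8629 genes. It lay between 2.62 and 3.96 when 1 array was left out. A further Themis probe set was higher by 2.42, at 5.75 and 6.25 in the deleted against 4.46 and 2.69 in the wild-type group. The third, below the filter, read 5.57 and 4.25 against 2.95 and 2.55, and the fourth stayed near the floor of the arrays at 2.73 or below on every array.

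Lat, the membrane scaffold phosphorylated by ZAP-70, was at 10.29 and 10.36 in the deleted against 9.62 and 8.93 in the wild-type group. The deleted arrays were close to each other and above both wild-type arrays, with a difference of 1.05 (SE 0.35, limma adjusted p = 0.41) that was 0.71 without wild-type replicate 2. Grap2 encodes GADS, which joins LAT to SLP-76, and read 5.16 and 4.66 in the deleted against 3.74 and 3.90 in the wild-type group. Its difference of 1.09 (SE 0.33, limma adjusted p = 0.379) was set against a wild-type mean of 3.82, close to the floor, so its exact size depends on that floor, and its other probe set lay below the filter and overlapped. Lcp2, which encodes SLP-76, was at 11.03 and 10.50 in deleted cells, and its wild-type arrays, at 8.71 and 10.89, differed from each other by more than the groups did. The Lcp2 difference of 0.97 (SE 0.74) was -0.12 without wild-type replicate 1, and the further Lcp2 probe set differed by 0.11.

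The other adaptors and effectors lay between -0.54 and 0.38. Malt1, the paracaspase that works with CARMA1 and BCL10, was the lowest, at 8.15 and 7.97 in the deleted against 8.63 and 8.56 in the wild-type group. Its 3 probe sets past the filter disagreed, from -0.54 to 1.48, and the one at 1.48 overlapped between the groups. Bcl10 differed by -0.14, and its 3 probe sets ranged only from -0.14 to -0.06. The exchange factor gene Vav1 differed by -0.30 on 1 probe set and -0.31 on the other, with overlap on both. Plcg1, which encodes phospholipase C-gamma1, differed by 0.27 (95% interval -0.49 to 1.04) and Rasgrp1, the Ras exchange factor activated by diacylglycerol, by 0.00 (95% interval -0.75 to 0.76). The further Rasgrp1 probe set past the filter was higher without overlap, by 0.67. Trat1, which encodes the receptor-interacting adaptor TRIM, differed by 0.10, and Sh2d2a, which encodes the adaptor TSAD, by 0.38, both with overlap.

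**Figure D3:**
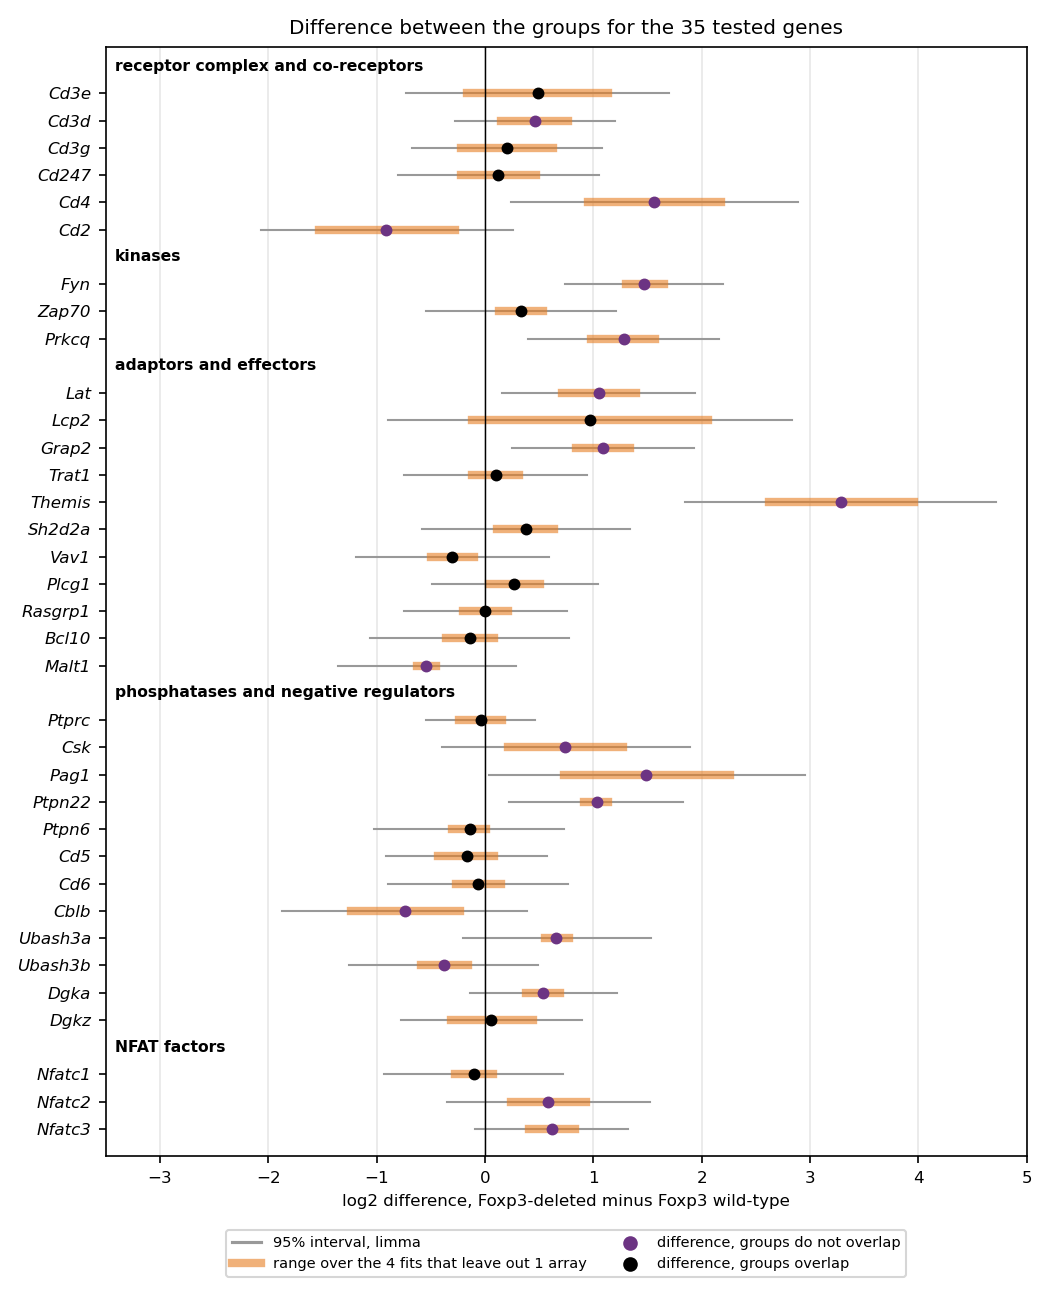
Log2 difference, deleted minus wild-type (horizontal axis), of the 35 tested genes with the 95% interval from limma and the range over the 4 fits that each leave out 1 array. Themis lies at 3.29 and Cd2 at -0.91, and the bars of Lcp2 and Cd3e show that leaving out 1 array can turn their sign.

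The phosphatases and negative regulators were divided, 6 with a higher and 6 with a lower mean, with a median difference of 0.01, which was 0.27 without deleted replicate 1 and 0.23 without wild-type replicate 1. Ptpn22 and Pag1 were higher by at least 1, and Cblb and Ubash3b were lower by less than 1, each without overlap. Ptpn22, a phosphatase that dephosphorylates Src family kinases and ZAP-70, was at 9.60 and 9.37 in the deleted against 8.55 and 8.37 in the wild-type group. Both groups were tight, and the difference was 1.03 (SE 0.32, limma adjusted p = 0.388), from 0.91 to 1.14 when 1 array was left out. Pag1, the membrane adaptor that recruits CSK, read 10.82 and 10.21 in the deleted against 8.26 and 9.78 in the wild-type group. Wild-type replicate 1 was far below replicate 2, and the Pag1 difference of 1.49 (SE 0.58, limma adjusted p = 0.492) was 0.73 without it. The further Pag1 probe set past the filter differed by -0.78 and overlapped, with 4.37 and 4.36 in the deleted and 5.91 and 4.36 in the wild-type group.

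Csk, the kinase that places the inhibitory phosphate on Src family kinases, was at 8.64 and 9.70 in the deleted against 8.52 and 8.32 in the wild-type group. Only a narrow gap separated the groups, and the difference of 0.74 was 0.21 without deleted replicate 2. Dgka, which removes diacylglycerol by phosphorylating it, was higher without overlap, by 0.54 (95% interval -0.14 to 1.22). Dgkz, which encodes a kinase of the same substrate, overlapped, with a difference of 0.06 (95% interval -0.77 to 0.90). The intervals of both kinases overlap widely, and the difference between them was not tested. Ptprc (difference -0.04, 95% interval -0.54 to 0.46), which encodes CD45, had the narrowest interval of the 35 genes. Ptpn6, which encodes SHP-1, differed by -0.14, and its further probe set by 0.29. The inhibitory receptor genes Cd5 and Cd6 differed by -0.17 and -0.06, again with overlap.

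Cblb and the STS genes act on activated kinases and receptors. Cblb, a ubiquitin ligase that raises the threshold for activation, was at 7.82 and 8.83 in the deleted against 9.18 and 8.93 in the wild-type group. Its difference of -0.74 was -0.23 without deleted replicate 1. A dimmer Cblb probe set had less spread, at 6.77 and 6.78 in the deleted against 7.64 and 7.65 in the wild-type group, a difference of -0.87, while the third overlapped at -0.08. Ubash3b, which encodes the phosphatase STS-1, was lower without overlap on all 3 of its probe sets, by 0.38, 0.53 and 1.40 on the log2 scale. On the last of these it read 6.15 and 6.51 in the deleted against 8.07 and 7.39 in the wild-type group. Ubash3a, which encodes its relative STS-2, was at 7.43 and 7.67 in the deleted against 6.89 and 6.88 in the wild-type group, higher by 0.66 (SE 0.34) without overlap. The second Ubash3a probe set differed by 0.11 and overlapped.

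The NFAT genes Nfatc2 and Nfatc3 were higher without overlap and Nfatc1 was not (3 tested, median difference 0.58). This median was 0.24 without deleted replicate 2 and 0.35 without wild-type replicate 1. Nfatc2 was at 10.10 and 10.79 in the deleted against 9.63 and 10.09 in the wild-type group, with the closest arrays of the groups almost equal, and its difference of 0.58 was 0.24 without deleted replicate 2. Nfatc3 read 11.13 and 11.31 in the deleted against 10.39 and 10.81 in the wild-type group, a difference of 0.62 (SE 0.28, limma adjusted p = 0.581). The further Nfatc3 probe set was also higher without overlap, by 1.72, at 8.17 and 9.41 in the deleted against 6.84 and 7.30 in the wild-type group. Nfatc1, whose product induces its own gene upon stimulation, overlapped at 9.02 and 9.26 in the deleted and 9.42 and 9.07 in the wild-type group. Its 4 probe sets past the filter ranged from -0.10 to 0.54.

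Of the 35 genes, 19 had at least 2 probe sets past the filter, and in 12 of these all probe sets had the same sign. Over the 60 probe sets of the pathway past the filter, 11 were higher by at least 1 without overlap (6.67% of 13999 probe sets tested) and 1 was lower (4.44% of all), the dimmest of Ubash3b. The smallest adjusted p of a pathway probe set in limma was 0.1996, for Themis.

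**Figure D4:**
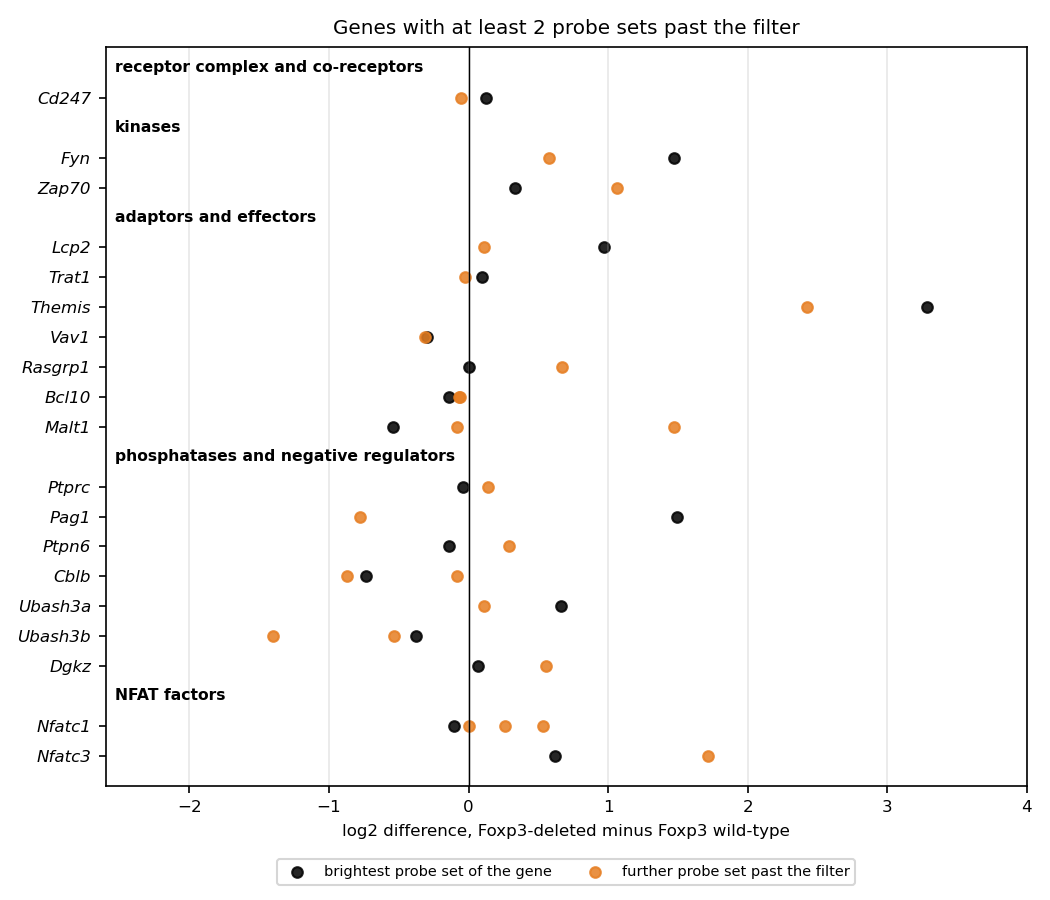
Log2 difference, deleted minus wild-type (horizontal axis), of every probe set past the filter for the 19 genes (rows) with at least 2 such probe sets, the brightest in black. Themis and Fyn keep their sign on each probe set, whereas Pag1 (-0.78 and 1.49) and Malt1 (-0.54 to 1.48) do not.

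Pathway genes outside the 37 gave a more even picture. A further 103 genes were listed from general knowledge, likewise with earlier results of these data known. Of these, 84 had a probe set and 78 were tested. Their means were higher for 41 and lower for 37, with a median difference of 0.05 and 0 calls in limma at an adjusted p of 0.05. By at least 1 without overlap, 6 were higher (7.69%, against 5.57% of all genes) and 3 lower (3.85%, against 4.93%). Proximal adaptors and Tec kinases, taken as 1 branch, had 13 of 17 means higher and the PI3 kinase branch 8 of 11. Tec itself differed by -0.42, with overlap. Ras and MAP kinase genes had 8 of 14 higher, calcium and calcineurin genes 5 of 16, the CARMA1 branch 3 of 8, and the phosphatases and ligases outside the 37 had 4 of 12. Of the 6 antigen receptor chain genes listed, only Tcra had a probe set, and it lay below the filter.

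The largest of these differences was that of Rasa3, a GTPase-activating protein for Ras, at 9.48 and 9.42 in the deleted against 6.73 and 8.04 in the wild-type group (difference 2.06, SE 0.51, limma adjusted p = 0.295). Pik3cg, the catalytic PI3 kinase subunit p110-gamma, was higher by 1.94 at its brightest probe set and by 0.50 at the other, and Pik3r5, a regulatory subunit that pairs with it, by 1.09. Sit1, a transmembrane adaptor that dampens receptor signals, was higher by 1.12. The phosphatase gene Ptpn11, which encodes SHP-2, was higher by 1.07, and Was, an activator of actin assembly, by 1.01. Without deleted replicate 2 Ptpn11 was at 0.88 and Was at 0.63. Sit1 was at 0.79 without deleted replicate 1, and Pik3r5 at 0.79 without wild-type replicate 2. Rasa3 and Pik3cg stayed at 1.41 or above and 1.44 or above when 1 array was left out. On the lower side, Spry1, an inhibitor of Ras and ERK signalling, was at 4.04 and 3.46 in the deleted against 4.85 and 5.04 in the wild-type group, and it passed the filter only through the wild-type arrays. Cish, a SOCS family gene, differed by -1.17. Nfat5, an NFAT relative that calcineurin does not control, differed by -1.02, its 3 probe sets ranging from -1.02 to -0.24. Leaving out 1 array moved Spry1 from -1.19 to as little as -0.90, Cish to -0.93 and Nfat5 to -0.94. No gene of this paragraph passed 0.05 after adjustment, the smallest adjusted p in limma being 0.276 for Pik3cg.

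The 4 Treg markers Foxp3, Il2ra, Ctla4 and Ikzf2 were all lower in deleted cells without overlap, with summed intensities of 2182 and 4284 in the deleted and 16290.9 and 17049.6 in the wild-type group. Markers of other cells differed between arrays. Of 12 myeloid markers listed 10 were measured and 5 passed the filter, and their summed intensity was 9769 and 2968 in the deleted against 2334 and 2452 in the wild-type group. Lyz2, S100a8, S100a9, Csf1r and Cd68 were highest in deleted replicate 1. Csf1r was bright on every array, at log2 intensities of 9.85 and 8.93 in the deleted against 9.06 and 8.30 in the wild-type group. Adgre1 did not exceed 4.44, and Cd14, Itgam, Cd33 and Fcgr1 stayed at a log2 intensity of 3.07 or below on every array. Natural killer markers, 4 of 5 measured, summed to 686.7 and 162.9 in the deleted against 226.3 and 169.6 in the wild-type group, with Ncr1 near the floor. B cell markers, 5 of 6 measured and only Cd79b past the filter, summed to 48.9 and 60.9 in the deleted against 131.6 and 122.2 in the wild-type group. Without deleted replicate 1, the array with the high myeloid and natural killer sums, 8 pathway genes were higher by at least 1 without overlap (22.9%, against 7.8% of all genes tested). Of these, 6 were shared with the 8 above, and Cd3e and Csk stood in place of Grap2 and Ptpn22. In the same fit 1 pathway gene, Cd2, was lower (8.32% of all genes). The only gamma-delta marker measured of 7 listed, Sox13, did not exceed 2.77, and of the red cell markers, 2 of 4 measured, Hba-a1 did not exceed 1.96. The part of these markers in the values of single genes was not tested.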

How the data were processed

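The deposited values are intensities on a linear scale, 1 per probe set and array. Per the submitters' processing notes, the authors made them with GCRMA 1.1.3. GCRMA corrects the background from the sequence of each probe and summarises the probe set, which leaves dim probe sets close to a common floor. The arrays had medians between 8.38 and 8.94, and further settings of that step were not stated. Per the labels, total RNA from 4 samples was amplified, labelled with biotin and grouped by Foxp3 genotype, 2 per group. The labels do not say whether replicates were separate animals, so p-values measure only the spread between these samples, and their number limits the precision.

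Intensities were converted to log2. The platform annotation gave 1 symbol to 34958 of the 45101 probe sets, several to 932 and none to 9211. Control probe sets were left out, which kept 34945 probe sets of 18193 genes, each gene by its brightest probe set. Genes whose mean log2 intensity reached 4 entered limma 3.58.1 in R 4.3.3 (lmFit, eBayes with an intensity trend, two-sided, 2 residual and 3.3 prior degrees of freedom). The p-values were adjusted by Benjamini-Hochberg over all of them. The procedure was tested on simulated data with 2 arrays per group. At a limma adjusted p under 0.05 it called 0.3% of the genes changed by 1 on the log2 scale. It called 9.6% of those changed by 2, 51.1% by 3 and 67.6% by 4. A gene that was not called is therefore not shown to be unchanged. Promoter letters were searched in Python 3.11.15 (pandas 2.3.3), and matplotlib 3.10.9 drew the plots.

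The members, the further pathway genes, the markers and the tests were chosen with earlier results of these data known. All members are accounted for; members that differed by at least 1 on the log2 scale without overlap and those of the receptor complex were to be given in full, with up to 12 of the further pathway genes past the same limits. Further values of other members were chosen after they were seen. Alternatives covered the filter, the probe set, the normalization, the floor, a pseudocount, the variance prior, the pairing of replicates and each array left out.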

Additional observations from a re-analysis of the deposited data

How the results depend on the processing

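No setting gave a pathway gene an adjusted p under 0.05 in limma. Over all genes tested, 27 passed with a filter at a mean log2 of 6, 39 with the mean over probe sets and 39 with quantile normalization, against 0 as reported. The count of pathway genes higher by at least 1 without overlap was 8 of 35, against 5.57% of all genes tested. With the mean over probe sets, where Cd4 differed by 0.99, Pag1 by 0.16 and Nfatc3 by 1.17, it was 6 (17.6%, against 3.91%). With log2(value + 16), where Grap2 differed by 0.62 and Ptpn22 by 0.99, it was 6 (17.1%, against 4.07%). With quantile normalization, where Ptpn22 differed by 0.97, it was 7 (20%, against 5.35%). It was also 7 with values below log2 of 4 raised to 4 (20%, against 5.16%) and with the filter at 6 (20.6%, against 4.89%). Leaving out 1 array gave 6 to 9. It was 8 without deleted replicate 1 (22.9%, against 7.8% of all genes), 9 without deleted replicate 2 (25.7%, against 8.67%), 6 without wild-type replicate 1 (17.1%, against 5.54%) and 6 without wild-type replicate 2 (17.1%, against 11.5%). The count of lower ones was 0, and 0 to 1 when 1 array was left out. With every probe set tested on its own it was 1, a count of probe sets and not genes. The further pathway genes then gave 13 higher and 7 lower of 150 probe sets (8.67% and 4.67%, against 6.67% and 4.44% of all probe sets tested), and 6 and 3 of 78 genes as reported. The count of lower further genes was 1 with the filter at 6 and 1 with log2(value + 16).

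The median difference of the 35 genes, 0.33, was 0.21 to 0.44 when 1 array was left out and 0.17 with every probe set. That of the kinase genes, 1.28, was 0.81 without a filter, where Txk enters, 1.02 with the mean over probe sets, 1.07 with every probe set and 0.98 to 1.43 when 1 array was left out. That of phosphatases and negative regulators, 0.01, was -0.02 to 0.27 when 1 array was left out, -0.04 with every probe set, -0.03 with quantile normalization and 0.12 with the mean over probe sets. The median was 0.11 to 0.51 for adaptors and effectors, 0.24 to 0.81 for NFAT genes and 0.21 to 0.46 for the receptor complex when 1 array was left out, and 0.10, 0.54 and 0.20 with every probe set. The sign held in all 4 fits that leave out 1 array for 22 of the 35 genes. It turned for Bcl10 (-0.36 to 0.08), Cd247 (-0.22 to 0.47), Cd3e (-0.17 to 1.14), Cd3g (-0.22 to 0.63), Cd5 (-0.43 to 0.08), Cd6 (-0.27 to 0.15), Dgkz (-0.31 to 0.44), Lcp2 (-0.12 to 2.06), Nfatc1 (-0.28 to 0.07), Ptpn6 (-0.30 to 0.01), Ptprc (-0.24 to 0.16), Rasgrp1 (-0.20 to 0.21) and Trat1 (-0.12 to 0.31). With the mean over probe sets the sign turned for Malt1 (0.29), Nfatc1 (0.17), Ptpn6 (0.07) and Ptprc (0.05), and with quantile normalization for Rasgrp1 (-0.03). The causes were not tested. Same-numbered samples did not deviate together (correlation of their deviations -0.298). Deleted replicate 1 correlated at 0.982 with wild-type replicate 2 and at 0.964 with wild-type replicate 1. The labels give no pairing, and these values cannot show whether samples were paired. With the replicate block 0 pathway genes passed and the median difference was 0.33, as reported, and a crossed replicate block, added after seeing the data, likewise gave 0. Leaving out 1 array leaves its group with a single array, which is then assumed to vary like the other group.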
